A study of Mus musculus with 15 samples.

Results

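Tumor-derived tissue was set against non-tumor liver in mice carrying a switchable MYC transgene, with 1 group in which the transgene was on and 1 in which it was off on each side. All 15 arrays of the series entered, and the labels set the side and the group of each. The tumor-derived side held 8 arrays, 4 of tumor nodules (MYC on) and 4 of early tumor regression (MYC off). The non-tumor side held 7 arrays, 4 of pre-tumor liver (MYC on) and 3 of control liver (MYC off). The measure, called the tissue contrast here, is the mean of the tumor and regression group means minus the mean of the control and pre-tumor group means, in log2. It is the average of 2 differences that share no array, tumor minus pre-tumor (the MYC-on pair) and regression minus control (the MYC-off pair).

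All animals were of the FVB/N strain and carried LAP-tTA, which makes the tetracycline transactivator under the liver activator protein promoter and so drives the transgene mainly in hepatocytes. Control liver carried LAP-tTA without TRE-MYC. The other 3 groups carried LAP-tTA and TRE-MYC, and here MYC is made when doxycycline is withdrawn. Mice ate doxycycline chow at 200 mg/kg until they were more than 8 weeks old. Pre-tumor liver was taken 4 to 5 weeks after the chow was removed, with no tumor present, and tumor nodules after 8 to 9 weeks. Regression samples had the same 8 to 9 weeks followed by 72 hours back on doxycycline. The time for which the controls were off doxycycline was not given, nor was it stated whether each array was a separate animal, so the p-values measure the spread between these arrays. Tumor-derived tissue was also taken later than pre-tumor liver, and regression differed from control in the transgene and in the return to doxycycline, so tissue, time and these treatments cannot be told apart within a pair.

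MYC is a transcription factor that, with its partner MAX, binds E-box sequences and drives growth, ribosome production and cell division. The adult hepatocyte secretes plasma proteins and carries the enzymes of drug, bile acid, amino acid and glucose metabolism, while the fetal hepatocyte expresses alpha-fetoprotein and imprinted growth genes that are silenced around birth. Liver tumors commonly lose the first program and regain parts of the second.

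The label of the contrast was checked first, and MYC was balanced by group but not by level. Of 3 probes named Myc, 1 (A_52_P108346) was higher in the groups with the transgene on. Its level, in log2 relative to the 75th percentile of each array, was -0.23, -0.94 and -1.63 in control liver and 2.49, 0.092, 1.72 and 0.20 in pre-tumor liver. It was 4.08, 3.66, 4.81 and 4.35 in tumor nodules and -0.56, -0.24, -0.10 and -0.82 in regression. Every tumor array lay above every pre-tumor array, every pre-tumor array above every control array, and the regression arrays lay within the range of the controls or just above it. Tumor exceeded regression by 4.66 ± 0.50 (adjusted p = 3.67e-05), while the excess of pre-tumor over control, 2.06 ± 0.54 (adjusted p = 1), did not pass. The tissue contrast of this probe was 1.80 ± 0.37 (adjusted p = 0.0027), and the MYC-on pair differed by 3.10 ± 0.50 (adjusted p = 0.000402), or 8.57-fold. In the MYC-off pair the difference was 0.50 ± 0.54 (adjusted p = 0.611), with a spread that overlapped 0. The other 2 probes did not pass the test in the tissue contrast, at -0.40 ± 0.31 (adjusted p = 0.363) for A_51_P102096 and -0.55 ± 0.32 (adjusted p = 0.23) for A_52_P278549, and the second of these stands for Myc in the analysis by gene. In the MYC-on pair A_51_P102096 fell, at -1.26 ± 0.42 (adjusted p = 0.0488). This probe was also lower in tumor than in regression, by 1.64 ± 0.42 (adjusted p = 0.0144), with 1 of 4 tumor arrays well above background. So MYC differed between the sides on A_52_P108346, and the MYC-off pair is the one in which that probe did not pass. Max, the partner of MYC, had a tissue contrast of 0.83 ± 0.28 (adjusted p = 0.0435), a call lost without any 1 of 11 arrays (from 0.65 to 0.88, control 1, control 3, pre-tumor 1, pre-tumor 4, tumor 1, tumor 2, tumor 3, tumor 4, regression 1, regression 2 and regression 4) or with slide as a block, array weights, the 4 arrays of highest E1A spike-in signal left out or the 3 complete slides alone (from 0.43 to 0.90), and Mycn, a relative of MYC expressed in development, had -0.53 ± 0.36 (adjusted p = 0.302).

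**Figure D1:**
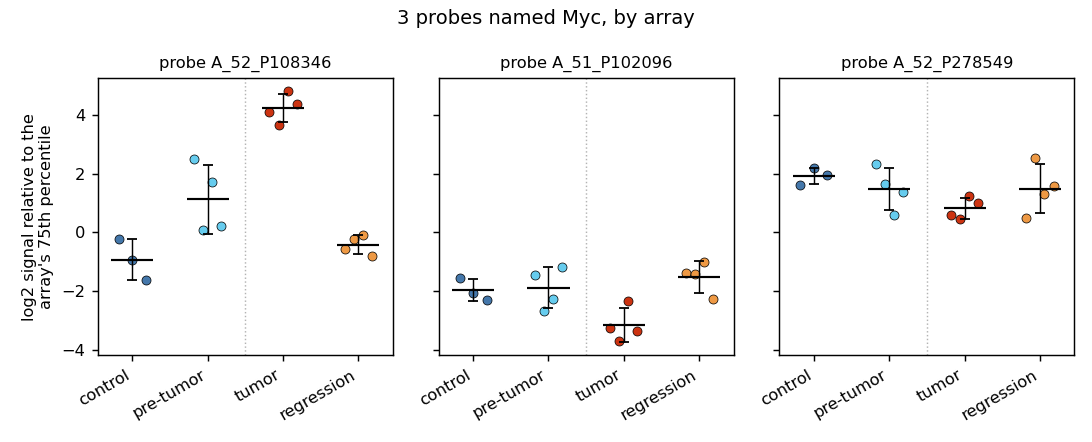
Log2 signal of the 3 probes named Myc on each of 15 arrays, relative to each array's 75th percentile, with 1 point per array, group means as lines and SD as error bars. The dotted line parts non-tumor liver (left) from tumor-derived tissue (right). The probe on the left is highest in tumor nodules, where it lies between 3.66 and 4.81, and it does not exceed -0.10 in regression.

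Arrays differed in brightness, with 46.4% to 90.8% of 43379 spots well above background and no saturated spot. The tissue split was the largest source of variation: the first principal component, with 35.3% of the variance, had all 8 tumor-derived arrays above 0 and all 7 non-tumor arrays below it, and the second, with 17.5%, parted tumor from regression. Of 19208 genes tested, 2130 rose in tumor-derived tissue (11.1%) and 2450 fell (12.8%) at a limma adjusted p under 0.05. Among them 354 rose and 638 fell by 4-fold or more. Counts of list members in the contrast are to be read against the 11.1% and 12.8% of all genes. The share of calls that were rises depended on the scaling: it was 46.5% here, 62.3% with median centring, 59.3% with normexp and quantile normalization and 58.6% in the authors' deposited table. The median gene was at -0.17 here and at 0.12 with median centring, and differences below are to be read against that shift. No gene called here was called the other way under any setting. Of the 4580 calls, 4173 had the same direction within each of the 3 slides that held all 4 groups, and 3154 were still called with slide as a block. The arrays of these slides also gave the calls, so the shared direction is a description and no independent support.

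The pairs were unequal. In the MYC-on pair 3683 genes were called (19.2%), with 10.1% of all genes rising and 9.1% falling. In the MYC-off pair the count was 1601 (8.34%), with 5.04% rising and 3.29% falling. The second count fell to 1046 without control 1, 1052 without control 3 and 1016 without regression 1. With replicate number as a block it rose to 3519. Across all genes the 2 differences had the same sign for 66.7%, with Pearson's r = 0.52 and Spearman's rho = 0.49, as a description over genes, which are not independent. The pairs share no array, but they share slides. Genes called in 1 direction in the contrast and in both pairs numbered 331 that rose (1.72% of those tested) and 415 that fell (2.16%), or 3.88% in all. A further 2001 genes called in the contrast passed in the MYC-on pair alone, 642 in the MYC-off pair alone and 1190 in neither. Passing in 1 pair alone does not show that the pairs differ. The test of that difference called 1328 genes (6.91%), with 2.91% above 0 and 4.01% below it, or 879 without regression 2.

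**Figure D2:**
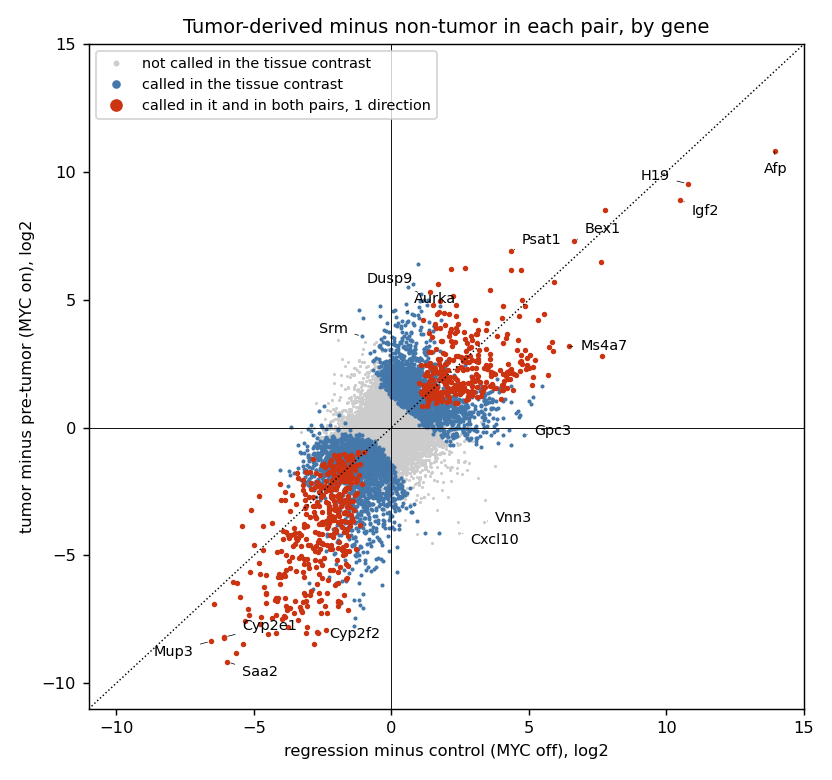
Difference between tumor-derived and non-tumor tissue in the MYC-on pair (vertical) against the MYC-off pair (horizontal), in log2, with 1 point per gene for 19208 genes. The dotted line marks equal differences. Red points (746 genes) were called in 1 direction in the contrast and in both pairs, with Afp, H19 and Igf2 at the top right and Saa2, Mup3 and Cyp2e1 at the bottom left. Blue points are the other genes called in the contrast.

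Fetal liver and imprinted growth genes had the highest median of the lists in the tissue contrast, and similar medians in both pairs. Of 28 such genes tested, 18 rose and none fell, 13 of them in the contrast and in both pairs. Their median was 2.54, and it was 2.65 in the MYC-on pair and 2.64 in the MYC-off pair, against -0.17, -0.12 and -0.25 for all genes. The difference between the pairs passed for 4 of them, 1 above 0 and 3 below. Within the 3 complete slides the median lay between 2.02 and 2.99.

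Afp encodes alpha-fetoprotein, the main plasma protein of the fetus and a tumor marker of liver. Its level was -4.85, -4.85 and -3.93 in control liver and -4.76, -2.06, -2.49 and -4.92 in pre-tumor liver, against 7.23, 7.82, 7.02 and 6.94 in tumor nodules and 9.31, 9.10, 9.74 and 9.39 in regression. The lowest tumor-derived array was far above the highest non-tumor array. Afp was well above background on no control array and on 2 of 4 pre-tumor arrays, so the size of its rise is uncertain. It was 2942-fold with control raised to background (adjusted p of the contrast = 5.54e-11). For such figures, each array of a group with none well above background took the higher of 2 values. These were the probe's own value and that array's lowest signal well above background. Other groups, here pre-tumor liver with its dim arrays, kept their own values, so 2942-fold is not a strict lower bound. With these dim baselines the sizes of its rise in the 2 pairs are not set against each other. Alb, its neighbor on chromosome 5 and the main plasma protein of the adult, did not rise with it. Alb was at 10.21, 10.36 and 9.84 in control liver, 9.90, 10.08, 11.20 and 9.40 in pre-tumor liver, 7.47, 8.17, 8.50 and 7.04 in tumor nodules and 10.24, 10.60 and 10.37 on the regression arrays with a usable spot. The tumor arrays alone were low, and the regression arrays lay within the range of non-tumor liver. The tissue contrast of Alb was -1.04 ± 0.31 (adjusted p = 0.0261), a call lost without any 1 of 4 arrays (from -1.02 to -0.99, control 1, control 2, tumor 1 and regression 1). It was also lost with median centring, slide as a block, only 2 sides in the model or the 3 complete slides alone (from -1.23 to -0.77). The MYC-on pair gave -2.35 ± 0.41, the MYC-off pair 0.27 ± 0.47, and their difference passed the test (adjusted p = 0.022).

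Windows around the starts of Afp and Alb, and of Cyp2e1, which fell and is described with the P450 enzymes, are shown since all 3 are typical hepatocyte promoters whose genes moved differently. Each holds 250 bases before and 50 after the start in RefSeq's table for GRCm38.p6, on the plus strand. Afp lies at chr5:90490464-90490763, Alb at chr5:90460620-90460919 and Cyp2e1 at chr7:140763569-140763868. Capitals mark TATAAA, a form of the TATA box, searched on both strands, which was found in the windows of Afp and Cyp2e1 and not in that of Alb. Only these exact letters were searched, so their absence does not show that Alb lacks a TATA box of another form.
Afp: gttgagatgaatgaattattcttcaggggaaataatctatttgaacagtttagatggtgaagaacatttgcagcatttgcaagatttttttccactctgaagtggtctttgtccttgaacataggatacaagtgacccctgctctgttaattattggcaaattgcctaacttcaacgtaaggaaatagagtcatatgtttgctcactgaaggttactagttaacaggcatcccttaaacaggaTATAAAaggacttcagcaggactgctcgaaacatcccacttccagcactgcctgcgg
Alb: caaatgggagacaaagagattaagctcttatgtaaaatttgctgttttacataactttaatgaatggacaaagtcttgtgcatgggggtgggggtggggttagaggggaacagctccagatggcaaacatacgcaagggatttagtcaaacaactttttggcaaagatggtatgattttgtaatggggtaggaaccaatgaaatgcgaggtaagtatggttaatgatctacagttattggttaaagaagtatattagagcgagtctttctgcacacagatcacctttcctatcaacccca
Cyp2e1: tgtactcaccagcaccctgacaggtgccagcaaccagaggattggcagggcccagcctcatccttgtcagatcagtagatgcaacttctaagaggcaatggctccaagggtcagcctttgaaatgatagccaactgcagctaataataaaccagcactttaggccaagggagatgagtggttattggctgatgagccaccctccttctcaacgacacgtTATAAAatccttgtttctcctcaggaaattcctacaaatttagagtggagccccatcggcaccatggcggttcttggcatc
TATAAA was found in 11.1% of the 14451 tested genes with such a window, 13.8% of those that fell, 18.5% of those that fell in the contrast and both pairs, and 7.29% of those that rose. The E-box CACGTG was in 8.81%, 7.79% and 11.4%, in the order all, fell and rose. The E2F sequence TTTGGCGC was in 0.817%, 0.658% and 1.88%. These shares describe letters in a window, were not tested, and do not show binding.

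H19 is an imprinted long noncoding RNA, silent in adult liver. It was at -1.76, -0.87 and -1.66 in control and -1.18, 0.11, 1.62 and -1.36 in pre-tumor liver, and at 9.17, 10.15 and 8.69 on 3 usable tumor arrays and 9.06, 9.22, 9.81 and 9.25 in regression. The sides were far apart, with a tissue contrast of 10.15 ± 0.43 (adjusted p = 3.41e-09), 9.54 ± 0.61 in the MYC-on pair and 10.76 ± 0.61 in the MYC-off pair. Its imprinted neighbor Igf2, a fetal growth factor, ran from -3.46 to -1.56 in non-tumor liver, with a median of -2.43. In tumor-derived tissue it ran from 5.46 to 8.23, with a median of 7.36, and its contrast was 9.70 ± 0.38 (adjusted p = 3.8e-10). Igf2 was well above background on 1 of 3 control arrays, so the size of its rise is uncertain. Peg3, an imprinted zinc finger gene, rose by 4.77 ± 0.32, 4.21 ± 0.44 and 5.34 ± 0.47 in the contrast, the MYC-on pair and the MYC-off pair.

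The Bex genes, small X-linked adaptor proteins expressed mostly in brain, moved as a block. Bex3 ran from -0.71 to 2.38 in non-tumor liver (median 1.49) and from 7.48 to 8.99 in tumor-derived tissue (median 8.14). Its contrast was 7.05 ± 0.39, that of Bex1 6.97 ± 0.43 and that of Bex4 5.43 ± 0.37. Bex1 was at 5.66, 5.66 and 5.70 on 3 usable tumor arrays and 4.73, 4.40, 4.28 and 3.85 in regression, and the highest of the 7 non-tumor arrays stood at -0.47. Bex2 was 236-fold higher with the 3 control arrays, all dim, raised to background (adjusted p of the contrast = 1.17e-08). Pre-tumor liver, with 1 of 4 arrays well above background, kept its own values, so this is not a strict bound. None of these 4 Bex genes passed the test of a difference between the pairs. These genes resemble each other in sequence, and cross-hybridization between them was not tested.

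Gpc3, a cell surface proteoglycan used as a liver tumor marker, did not follow this pattern. It rose in the MYC-off pair (4.80 ± 0.95; adjusted p = 0.00416) and was at -0.29 ± 0.88 in the MYC-on pair (difference between the pairs -5.09 ± 1.30, adjusted p = 0.0274). It was well above background on 1 of 4 tumor arrays, 2 of 4 pre-tumor arrays and all 4 regression arrays, and its tissue contrast of 2.26 ± 0.65 was no longer called without control 2 (1.92) or with only 2 sides in the model or the 3 complete slides alone (from 2.26 to 2.45). Of the fetal and imprinted genes, 10 passed in neither direction, among them Hmga2, Sall4 and Igf2bp1, at -0.21 ± 0.34, 0.15 ± 0.27 and 1.05 ± 0.61.

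**Figure D3:**
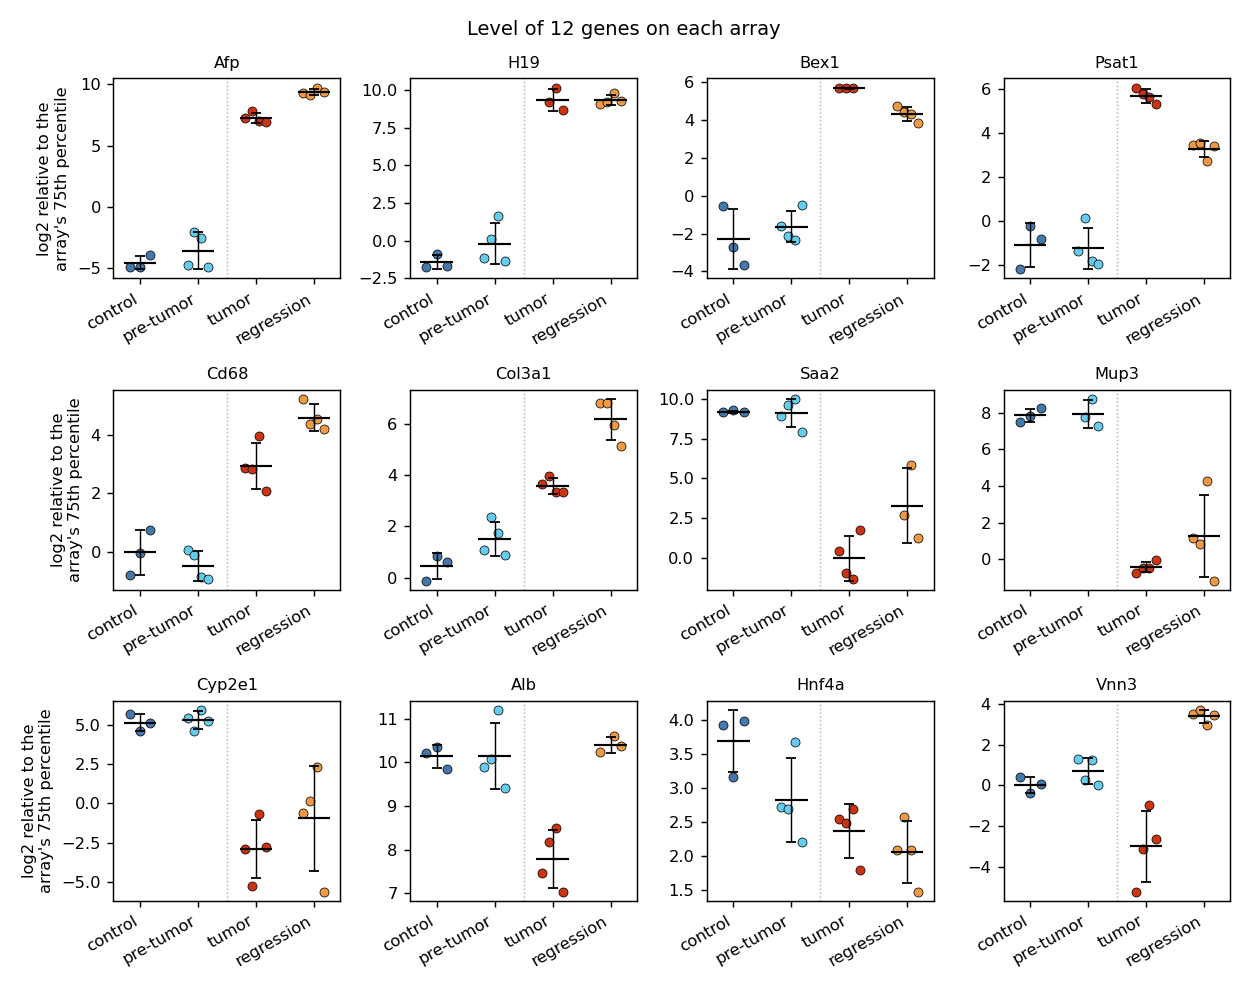
Level of 12 genes on each array, in log2 relative to the array's 75th percentile, with 1 point per array, group means as lines and SD as error bars, and a dotted line between non-tumor liver and tumor-derived tissue. Afp, H19, Bex1, Psat1, Cd68 and Col3a1 are higher on all tumor-derived arrays than on any non-tumor array, and Saa2, Mup3 and Cyp2e1 are lower. Alb is low in tumor nodules alone, Hnf4a overlaps between the sides, and Vnn3 lies on opposite sides of non-tumor liver in tumor and regression.

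Other genes also rose without overlap between the sides, by less than Afp, H19 and Igf2. In all, 413 genes (2.15%) were higher on each of 8 tumor-derived arrays than on any of 7 non-tumor arrays, and 596 (3.1%) were lower, together 5.25% of the genes tested. Psat1, an enzyme of serine synthesis, was at -2.15, -0.23 and -0.82 in control liver, -1.33, 0.14, -1.81 and -1.92 in pre-tumor liver, 6.05, 5.74, 5.61 and 5.31 in tumor nodules and 3.43, 3.54, 2.73 and 3.41 in regression. Its contrast was 5.63 ± 0.35 (adjusted p = 3.11e-08), with 6.91 ± 0.47 in the MYC-on pair and 4.34 ± 0.51 in the MYC-off pair, and tumor arrays stood above regression arrays. Psph, the last enzyme of the same pathway, rose by 3.77 ± 0.34 (adjusted p = 9.08e-07), and Phgdh, the first, by 1.29 ± 0.29. Psph was well above background on 1 of 3 control arrays, so its size is uncertain. Phgdh gave 2.64 ± 0.40 in the MYC-on pair and -0.057 ± 0.43 in the MYC-off pair, and its call was lost with only 2 sides in the model (1.30).

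Among the largest measured rises were also Cd63, a tetraspanin of late endosomes (4.99 ± 0.37), Adgrg1, an adhesion receptor (4.88 ± 0.34), Ms4a7, expressed by macrophages (4.82 ± 0.41), Abcg1, a cholesterol exporter (4.59 ± 0.37), and Cyba, a subunit of the phagocyte oxidase (4.50 ± 0.32). Ms4a7 differed between the pairs, at 3.17 ± 0.56 in the MYC-on pair and 6.47 ± 0.60 in the MYC-off pair (adjusted p of the difference = 0.0243). Only 1 gene was higher with all 7 non-tumor arrays dim and all 8 tumor-derived arrays measured, Baiap2l2, a membrane-bending adaptor of epithelia, at least 4.02-fold (adjusted p = 5.66e-08).

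For 1018 of the called genes the pairs gave nearly the same size and the MYC-on groups stood at the level of the MYC-off groups, with both differences under 0.5. The largest rises of this kind were Morc4 (4.79 ± 0.36), Cyba, Cyfip2, an actin regulator (3.63 ± 0.36), and Anxa2, a calcium-dependent membrane binder (3.26 ± 0.25). Dnmt3a, a DNA methyltransferase, followed at 3.22 ± 0.33, with Mbp (3.02 ± 0.37), Ttyh3, a chloride channel (2.98 ± 0.25), and Tceal9 (2.91 ± 0.31). Dnmt3a ran from 0.84 to 1.76 in non-tumor liver (median 1.25) and from 3.38 to 5.36 in tumor-derived tissue (median 4.84), so the sides did not overlap. The largest falls of this kind were Saa1 (-5.85 ± 0.37), Cyp2c23 (-3.99 ± 0.34), Cyp2b23 (-3.15 ± 0.63), Ang2, a ribonuclease (-3.10 ± 0.30), and Oat, which links ornithine to proline and glutamate (-2.96 ± 0.34). Onecut2, Srd5a1, the steroid 5-alpha reductase, and Lhpp, a phosphatase, followed at -2.92 ± 0.33, -2.85 ± 0.30 and -2.81 ± 0.34. These genes were picked for small MYC differences, so that feature is no finding.

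Cell division genes rose in the contrast, and the rise came mainly from the MYC-on pair. Of 45 genes of mitosis, 27 rose and none fell, 8 of them in the contrast and both pairs. Their median was 3.06 in the MYC-on pair, with 38 rising, and 0.086 in the MYC-off pair, with 8 rising and 0 falling. The difference between the pairs passed for 28 of them. Birc5, which encodes survivin, was at -0.049, 1.19 and 0.64 in control liver, 1.65, 1.41, 0.95 and 0.99 in pre-tumor liver, 6.72, 6.99, 5.96 and 6.47 in tumor nodules and 1.96, 2.10, 2.21 and 1.74 in regression. Tumor arrays were the highest, and all 4 regression arrays lay between them and the highest non-tumor array. Birc5 rose by 5.28 ± 0.33 in the MYC-on pair and 1.41 ± 0.36 in the MYC-off pair (adjusted p = 0.0233). Incenp, a chromosomal passenger protein, gave 4.06 ± 0.33 and 1.59 ± 0.36. Cenpa, the histone of the centromere, gave 4.20 ± 0.33 and 3.06 ± 0.36, with 1 of 3 control arrays well above background, so the second size is uncertain. Mki67, the proliferation marker Ki-67, rose by 2.94 ± 0.38 (adjusted p = 4.02e-05), 3.75 ± 0.52 and 2.14 ± 0.56 in the pairs, with 1 of 3 control arrays well above background.

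DNA replication genes had the same pattern: 27 of 38 rose and 1 fell (Mcm10), with 31 rising in the MYC-on pair and 2 in the MYC-off pair. Those 2 were Mcm2, a helicase subunit (1.72 ± 0.39), and Cdt1, a licensing factor (1.51 ± 0.45). Mcm2 was well above background on 1 of 3 control arrays, so its size is uncertain. Genes of nucleotide and one-carbon metabolism rose in 14 of 28 cases, 3 of them (Mthfd1l, Psat1 and Psph) in all 3 comparisons. Mthfd1l, a mitochondrial folate enzyme, was 7.39-fold higher with the 3 control arrays, all dim, raised to background. Ribosome biogenesis genes rose in 17 of 36 cases, fell in 1 (Rcl1), and passed in all 3 comparisons in 0. Their median was 1.74 in the MYC-on pair and -0.31 in the MYC-off pair, close to that of all genes. Npm1, nucleophosmin, gave 2.73 ± 0.35 and 0.40 ± 0.38, and Fbl, the fibrillarin methyltransferase, 2.09 ± 0.30 and 0.25 ± 0.33, and the difference between the pairs passed for both (adjusted p = 0.0136 and 0.0216). Tumor was also the highest group on the Myc probe A_52_P108346, and its part in these rises was not tested.

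Proteins secreted by the adult hepatocyte fell, some by more than 6 log2 units. Acute-phase proteins fell in 16 of 21 cases and rose in none, with a median of -2.85, -4.62 in the MYC-on pair and -0.78 in the MYC-off pair. Saa2, a serum amyloid A apolipoprotein, was at 9.17, 9.30 and 9.21 in control and 8.94, 9.63, 10.02 and 7.95 in pre-tumor liver. It was at 0.45, -0.97, -1.35 and 1.75 in tumor nodules and 2.69, 5.87 and 1.24 on 3 usable regression arrays. The regression arrays were spread over a wide range, yet each lay below every non-tumor array, and the contrast was -7.56 ± 0.65 (adjusted p = 9.61e-07). Saa3 fell by 7.23 ± 0.44, Saa1 by 5.85 ± 0.37, Orm1, an acid glycoprotein, by 6.29 ± 0.59, and Serpina3c, a protease inhibitor, by 5.56 ± 0.39. Saa3 and Serpina3c fell further in the MYC-on pair (adjusted p of the difference = 0.0392 and 0.00181). Haptoglobin (Hp), hemopexin (Hpx) and ceruloplasmin (Cp) fell in the MYC-on pair, and in the MYC-off pair stood at -0.35 ± 0.77, -0.45 ± 0.56 and -0.39 ± 0.67.

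All 5 major urinary proteins tested fell in the contrast and in both pairs. These are pheromone carriers that adult mouse liver makes in large amounts. Mup3 was at 7.51, 7.80 and 8.24 in control liver, 7.78, 8.76 and 7.26 on 3 usable pre-tumor arrays, -0.71, -0.48, -0.45 and -0.043 in tumor nodules and 1.19, 0.85, 4.28 and -1.15 in regression. Regression 3 stood above the other regression arrays and still below all non-tumor arrays. Mup3 fell by 7.46 ± 0.61 (adjusted p = 5.39e-07), Mup4 by 7.16 ± 0.65, Mup1 by 6.93 ± 0.74, Mup5 by 6.44 ± 0.64 and Mup6 by 6.22 ± 0.69. These genes are near-identical copies, so the probes may share signal and the 5 falls are not independent.

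Other plasma proteins fell in 21 of 34 cases and rose in none, and here the pairs parted. In the MYC-on pair 33 of 34 fell (median -2.14). In the MYC-off pair 3 fell and 2 rose (median -0.035). The difference between the pairs passed for 17 of them. C8a, C9 and Apoc3 were the 3 that fell in all 3 comparisons, of which C8a, a chain of the complement membrane attack complex, gave -5.00 ± 0.34 and -1.75 ± 0.34. F9, coagulation factor IX, gave -5.47 ± 0.37 and -0.86 ± 0.40 (difference adjusted p = 0.000359). F11, coagulation factor XI, fell by 4.13 ± 0.42 in the MYC-on pair and rose by 1.74 ± 0.46 in the MYC-off pair. Pon1, a lipoprotein-bound esterase, fell by 6.12 ± 0.38 in the contrast, with -8.04 ± 0.52 and -4.20 ± 0.56 in the pairs, and Wfdc21, a small secreted protein, by 6.06 ± 0.45.

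Enzymes of drug metabolism fell almost without exception. Of 26 P450 genes and partners 25 fell and none rose, 18 of them in all 3 comparisons and 20 without overlap between the sides. The median was -3.79, and within the 3 complete slides it lay between -4.14 and -3.60. Cyp2e1, which oxidizes ethanol and small solvents, was at 5.68, 4.61 and 5.07 in control liver, 5.40, 4.57, 5.94 and 5.23 in pre-tumor liver, -2.94, -5.25, -0.70 and -2.76 in tumor nodules and -0.63, 0.17, 2.27 and -5.62 in regression. All 8 tumor-derived arrays were below the 7 others, while the regression arrays spanned the widest range of the 4 groups. Cyp2e1 fell by 7.14 ± 0.91 (adjusted p = 3.04e-05). Cyp2f2 fell further in the MYC-on pair (-8.04 ± 0.67) than in the MYC-off pair (-2.66 ± 0.72; adjusted p of the difference = 0.00496). Cyp2a4 and Cyp2a5, near-identical in sequence, gave contrasts of -5.63 ± 0.31 and -5.64 ± 0.38, each larger in the MYC-on pair (adjusted p of the difference = 0.00336 and 0.0133). The gene that did not pass was Cyp4a14, at -0.63 ± 0.37, with -2.17 ± 0.50 in the MYC-on pair and 0.92 ± 0.54 in the MYC-off pair (adjusted p of the difference = 0.0192).

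Conjugating enzymes and esterases fell in 30 of 32 cases, 21 of them in all 3 comparisons, with a median of -3.13. Ugt1a9, a glucuronosyltransferase, fell by 5.90 ± 0.48 and Ugt2b5 by 5.39 ± 0.30, with -7.25 ± 0.40 in the MYC-on pair and -3.53 ± 0.44 in the MYC-off pair for the second. Ces1f, a carboxylesterase, was at least 12.1-fold lower (adjusted p = 2.96e-08), since it was well above background on all 7 non-tumor arrays and on none of the 8 others. The same held for Apol9a (at least 9.68-fold), Sntg2 (7.52-fold), Obp2a, an odorant binder (5.01-fold), Elovl3, a fatty acid elongase (5-fold), and Gda, guanine deaminase (2.71-fold).

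Bile acid synthesis fell in 14 of 17 genes, and uptake and export carriers in 18 of 21, with medians of -1.88 and -1.77. In the MYC-off pair 7 and 6 fell, against 14 and 19 in the MYC-on pair. Cyp7b1, an enzyme of bile acid synthesis, was 47.7-fold lower with the 4 tumor arrays, all dim, raised to background. Regression, with 1 of 4 arrays well above background, kept its own values, so this is not a strict bound. Slc27a5, which activates bile acids for conjugation, gave -6.99 ± 0.43 and -1.94 ± 0.47 in the pairs. Slco1b2, an organic anion importer, gave -7.13 ± 0.43 and -3.28 ± 0.46, and the difference between the pairs passed for both (adjusted p = 0.000465 and 0.00235). Enzymes of the urea cycle and amino acid breakdown fell in 37 of 41 cases and rose in none (median -1.88), with 0 rising and 33 falling in the MYC-on pair and 0 and 14 in the MYC-off pair. Tdo2, the first enzyme of tryptophan breakdown, fell by 5.54 ± 0.45, with -6.52 ± 0.61 and -4.55 ± 0.66 in the pairs, and Aass, the first enzyme of lysine breakdown, by 5.47 ± 0.45.

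Liver genes of glucose handling fell in 13 of 17 cases and rose in none, with 0 rising and 12 falling in the MYC-on pair and 0 and 4 in the MYC-off pair. Fbp1, an enzyme of gluconeogenesis, gave -6.83 ± 0.46 and -1.85 ± 0.49 (adjusted p of the difference = 0.000756), and Khk, fructokinase, fell by 2.70 ± 0.33. Hk2, the hexokinase of muscle and tumors, was 3.02-fold higher with control, dim on all arrays, raised to background (adjusted p of the contrast = 0.000856). Pkm, the pyruvate kinase of non-hepatic tissue, ran from 0.036 to 1.30 in non-tumor liver (median 0.31). In tumor-derived tissue it ran from 2.27 to 4.92 (median 3.75), and its contrast was 3.25 ± 0.29, with 4.07 ± 0.41 and 2.43 ± 0.41 in the pairs. Pklr, the liver form, had a contrast of -1.01 ± 0.33 (adjusted p = 0.0382), a call lost without any 1 of 7 arrays (from -1.06 to -0.88, control 1, control 2, control 3, tumor 3, tumor 4, regression 2 and regression 4) or with median centring, slide as a block, the 4 arrays of highest E1A spike-in signal left out or the 3 complete slides alone (from -1.22 to -0.72). Of the 22 glycolysis genes 7 rose and 2 fell, with 9 rising and 2 falling in the MYC-on pair and 2 and 1 in the MYC-off pair (medians 1.03 and -0.23). Ldha, lactate dehydrogenase A, did not pass (0.16 ± 0.26, adjusted p = 0.697).

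Genes of fatty acid oxidation fell in 14 of 27 cases, with 1 rising and 12 falling in the MYC-on pair and 0 and 5 in the MYC-off pair. Fabp1, the liver fatty acid binder, gave -3.67 ± 0.35 in the MYC-on pair and -1.82 ± 0.38 in the MYC-off pair. The 1 that rose was Cpt1b, the muscle form of the carnitine transferase, at 2.02 ± 0.29. Genes of lipid synthesis fell in 14 and rose in 3 of 33 cases, with 2 rising and 9 falling in the MYC-on pair and 1 and 4 in the MYC-off pair. Scd2, a desaturase of fetal and brain tissue, was at 5.26 ± 0.51, while its adult liver relative Scd1 was at -3.61 ± 0.50.

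Of 34 transcription factors of liver, 14 fell and none rose, with a median of -0.80, and the list holds nuclear receptors of bile acid control. There were 0 rising and 12 falling in the MYC-on pair and 0 and 4 in the MYC-off pair (medians -1.03 and -0.81). Hnf4a, a nuclear receptor central to hepatocyte identity, was at 3.93, 3.16 and 3.98 in control liver, 2.72, 2.69, 3.68 and 2.20 in pre-tumor liver, 2.54, 2.48, 2.69 and 1.79 in tumor nodules and 2.09, 2.58, 2.09 and 1.47 in regression. The sides overlapped, since pre-tumor liver was lower than control, and the contrast was -1.04 ± 0.27 (adjusted p = 0.0123). The call of Hnf4a was lost with median centring (-0.75) and with the mean of its probes (-0.69). Onecut2 and Gata6 fell by 2.92 ± 0.33 and 2.00 ± 0.26, the second further in the MYC-on pair (adjusted p of the difference = 0.0229). Cebpa and Onecut1 did not pass, at -0.37 ± 0.43 and -0.52 ± 0.35 (adjusted p = 0.568 and 0.294).

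Genes of both liver zones fell in the contrast. Of the central vein zone 14 of 16 fell and none rose, and of the portal zone 12 of 14 fell and 2 rose. The central list had 0 rising and 11 falling in the MYC-on pair and 0 and 5 in the MYC-off pair, and the portal list 1 rising and 10 falling in the MYC-on pair and 2 and 3 in the MYC-off pair. The difference between the pairs passed for 3 central and 7 portal genes. Slc1a2, a glutamate carrier of the central zone, fell by 4.93 ± 0.37. Pigr, the immunoglobulin carrier of the portal list, was 14.8-fold lower with the 4 tumor arrays, all dim, raised to background. Glul, glutamine synthetase and the classic gene of cells around the central vein, was near the threshold and fell by 1.00 ± 0.35 (adjusted p = 0.0473), a call lost without any 1 of 10 arrays (from -1.04 to -0.82, control 1, control 3, pre-tumor 1, pre-tumor 3, tumor 1, tumor 2, tumor 3, tumor 4, regression 2 and regression 4) or with median centring, no filter on dim probes, slide as a block, only 2 sides in the model, the 4 arrays of highest E1A spike-in signal left out or the 3 complete slides alone (from -1.03 to -0.71). These values are for the Glul probe of highest mean level. Other probes named Glul gave larger falls, -1.50 for A_52_P101279 and -1.31 for A_51_P441798, and were not tested. On A_52_P101279 every tumor-derived array lay below every non-tumor array. Of genes known to be higher in male liver 17 of 19 fell, and of those higher in female liver 10 of 20 fell and 1 rose. The male list had 0 rising and 16 falling in the MYC-on pair and 0 and 13 in the MYC-off pair, and the female list 0 rising and 9 falling in the MYC-on pair and 3 and 5 in the MYC-off pair. None of 5 sex-chromosome genes was called in the contrast, with 0 rising and 1 falling in the MYC-on pair and 0 and 0 in the MYC-off pair. Many were dim: 1 was well above background on all tumor arrays, against 3 in control, 4 in pre-tumor liver and 4 in regression. Xist, which marks female cells, stood at 0.0012 ± 0.63 (adjusted p = 0.999) in the contrast. A difference in sex between the sides was thus not seen in the contrast at this precision.

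**Figure D4:**
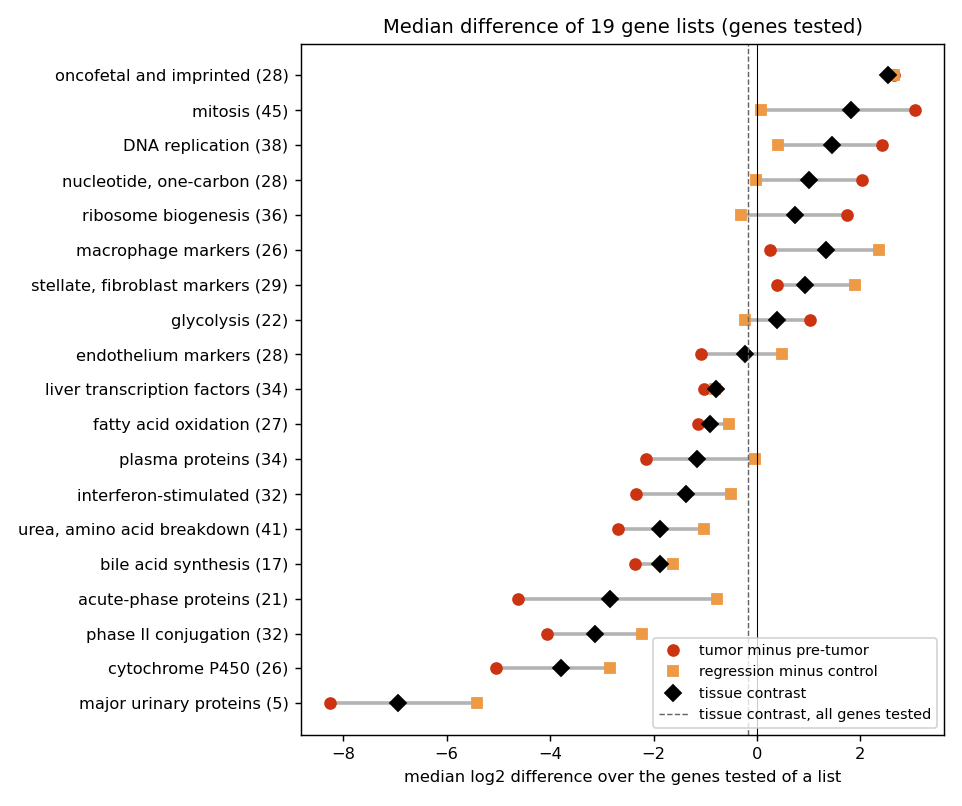
Median log2 difference over the tested genes of 19 gene lists (number of genes in brackets) in the tissue contrast (diamonds), the MYC-on pair (circles) and the MYC-off pair (squares), with the median over all genes tested as a dashed line. The oncofetal list lies near 2.54 in all 3 comparisons, while mitosis spans from 0.086 to 3.06.

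Interferon-stimulated genes fell in 17 of 32 cases and rose in none, mostly through the MYC-on pair, where 24 fell, against 3 in the MYC-off pair. Iigp1, a GTPase of cell-autonomous defense that was well above background on 1 of 4 tumor arrays, so that its size is uncertain, gave -6.90 ± 0.65 and -1.90 ± 0.70, and Cxcl9, a T cell chemokine, -6.74 ± 0.69 and -1.36 ± 0.74 (adjusted p of the differences = 0.00619 and 0.00563). Antigen presentation fell in 11 of 20 cases, all of the class I pathway, but the list medians of the pairs had opposite signs (-1.83 and 0.26). There were 0 rising and 13 falling in the MYC-on pair and 5 and 0 in the MYC-off pair. The difference between the pairs passed for 8 of them. The 3 that rose, H2-Aa, Cd74 and H2-Ab1, belong to class II, at 1.91 ± 0.57, 1.64 ± 0.50 and 1.76 ± 0.57. These 3 calls were lost without any 1 of 5, 6 and 9 arrays, control 1, pre-tumor 4, tumor 1, tumor 2 and regression 1 among them for each gene, at 1.45 to 1.76, 1.30 to 1.59 and 1.48 to 1.82. The others were control 2 for Cd74, and control 2, pre-tumor 3, regression 2 and regression 3 for H2-Ab1. H2-Aa gave 0.068 ± 0.78 in the MYC-on pair and 3.74 ± 0.84 in the MYC-off pair, Cd74 -0.16 ± 0.68 and 3.44 ± 0.73, and H2-Ab1 -0.19 ± 0.78 and 3.72 ± 0.84, and the difference between the pairs passed for Cd74 (adjusted p = 0.0408). The calls were also lost with only 2 sides in the model, the 4 arrays of highest E1A spike-in signal left out or the 3 complete slides alone (from 1.71 to 2.00) for H2-Aa, and with these settings and slide as a block for Cd74 and H2-Ab1. Of stress response genes 9 of 25 fell, most of them chaperones and folding factors of the endoplasmic reticulum, and 2 rose, with 1 rising and 6 falling in the MYC-on pair and 2 and 5 in the MYC-off pair. Asns, asparagine synthetase, rose by 2.84 ± 0.25, with 3.90 ± 0.33 in the MYC-on pair and 1.78 ± 0.36 in the MYC-off pair. Of p53 targets and cell cycle inhibitors 6 of 25 rose and 3 fell, with 5 rising and 4 falling in the MYC-on pair and 2 and 0 in the MYC-off pair. The falls in the contrast are near the 12.8% of all genes that fell. Cdkn1a, which encodes p21, did not pass (0.77 ± 0.38, adjusted p = 0.153).

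Markers of macrophages and of matrix-producing cells rose, most in regression. Of 26 macrophage genes 16 rose and 3 fell. There were 10 rising and 4 falling in the MYC-on pair and 17 and 1 in the MYC-off pair (medians 0.26 and 2.37). The mean level of the list ran from -0.14 to 1.19 in control, 0.081 to 1.01 in pre-tumor, 0.70 to 1.06 in tumor and 2.22 to 2.95 in regression. Tumor lay within the range of non-tumor liver, and regression above all other arrays. Cd68, a lysosomal glycoprotein of macrophages, was at -0.79, -0.04 and 0.75 in control liver, 0.042, -0.13, -0.88 and -0.96 in pre-tumor liver, 2.88, 2.84, 3.96 and 2.07 in tumor nodules and 5.24, 4.36, 4.55 and 4.20 in regression, and rose in both pairs (3.42 ± 0.44 and 4.61 ± 0.48). Lgals3, galectin-3, gave 3.02 ± 0.48 and 4.57 ± 0.51. Lyz2 and the complement C1q chains rose as well. Marco, Clec4f and Cd14, of which Clec4f marks resident Kupffer cells, were the 3 that fell, by 2.85 ± 0.42, 2.00 ± 0.50 and 1.28 ± 0.38 in the contrast, while Timd4, another marker of resident Kupffer cells, was at 2.25 ± 0.39. The call of Cd14 was lost without control 3 (-0.99) and with median centring, slide as a block, the 4 arrays of highest E1A spike-in signal left out or the 3 complete slides alone (from -1.31 to -0.99), and that of Clec4f with the 4 arrays of highest E1A spike-in signal left out (-1.96). In such bulk samples more cells of a type and more RNA per cell cannot be told apart.

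Genes of stellate cells and fibroblasts rose in 15 of 29 cases and fell in 2 (Ecm1 and Reln), with 6 rising and 5 falling in the MYC-on pair and 14 and 0 in the MYC-off pair. The mean level of the list ran from -0.49 to 0.04 in control and -0.046 to 0.29 in pre-tumor liver. It ran from -0.097 to 0.69 in tumor and 1.02 to 2.13 in regression, which again lay above the rest. Col3a1, a fibrillar collagen chain, was at -0.11, 0.86 and 0.62 in control liver, 1.08, 2.37, 1.73 and 0.89 in pre-tumor liver, 3.65, 3.96, 3.33 and 3.32 in tumor nodules and 6.79, 6.81, 5.93 and 5.12 in regression. The sides did not overlap, and the MYC-off pair exceeded the MYC-on pair (5.70 ± 0.46 and 2.05 ± 0.43; adjusted p of the difference = 0.00333). Col1a2 and Col1a1 had contrasts of 3.94 ± 0.34 and 3.63 ± 0.34, and Col1a2 gave 2.66 ± 0.46 in the MYC-on pair and 5.23 ± 0.50 in the MYC-off pair.

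The endothelial list had medians of opposite sign in the pairs, though 2 of its genes fell in the contrast and in both pairs. There were 0 rising and 13 falling in the MYC-on pair and 8 and 2 in the MYC-off pair (medians -1.07 and 0.48), and the difference between the pairs passed for 12 of 28. In the contrast 3 rose and 8 fell, and the median of -0.22 turned to 0.065 with median centring. The mean level of the list ran from -1.87 to -1.54 in tumor and from -0.83 to -0.12 in regression, with control and pre-tumor liver between -0.95 and -0.14. Tumor arrays were thus the lowest. Clec4g, a lectin of sinusoidal endothelium, fell by 3.02 ± 0.40, and Dnase1l3, a secreted nuclease of the same cells, gave -3.89 ± 0.46 and -0.66 ± 0.50 (adjusted p of the difference = 0.0101). Biliary markers rose in 4 and fell in 1 of 16 cases. Among the 4, Anxa5, which binds membrane phospholipid, gave 2.18 ± 0.31 (0.76 ± 0.42 in the MYC-on pair and 3.61 ± 0.45 in the MYC-off pair; adjusted p of the difference = 0.0126), and Epcam, also on the fetal list, gave 1.88 ± 0.44, while the duct keratins Krt19 and Krt7 did not pass (-0.97 ± 0.40 and 0.14 ± 0.32). T and NK cell genes rose in 6 and fell in 1 of 22 cases, with 1 rising and 0 falling in the MYC-on pair and 6 and 0 in the MYC-off pair. B cell genes rose in 1 of 14, and neutrophil genes fell in 2 of 14. Over all genes 11.1% rose and 12.8% fell, so neither count is read as a result about these cells. The part of these cells in other results was not tested.

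**Figure D5:**
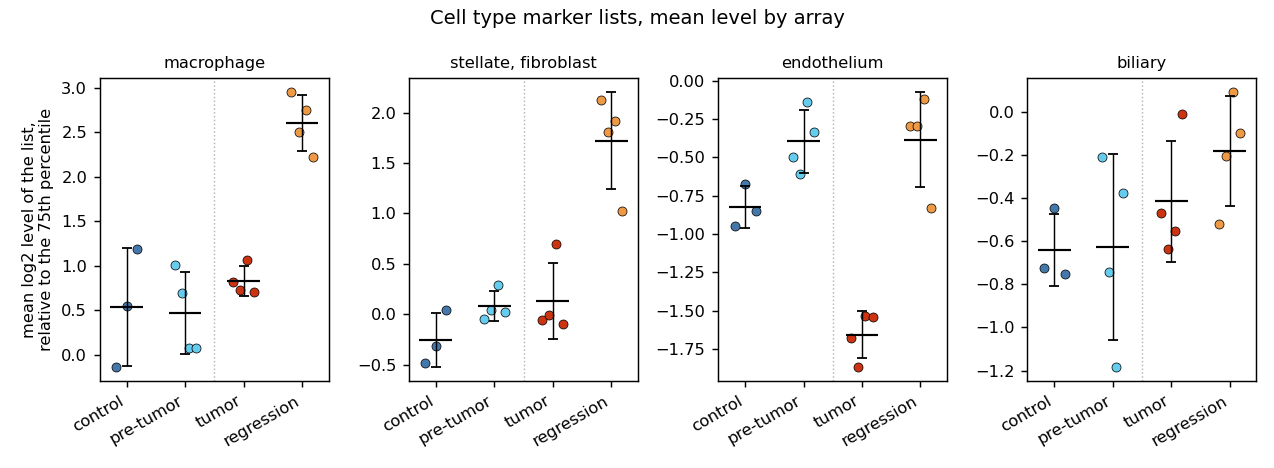
Mean log2 level over the tested genes of 4 cell type marker lists on each array, relative to the array's 75th percentile, with 1 point per array, group means as lines and SD as error bars. Macrophage and fibroblast lists are highest in regression, and the endothelial list is lowest in tumor nodules. Each panel has its own vertical scale.

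Some genes had a tissue contrast near 0 because the pairs opposed each other, and 42 genes were called in opposite directions in the 2 pairs. The largest measured differences between the pairs in favor of the MYC-on pair were those of Srm, spermidine synthase, Brca2, a DNA repair gene, and Sfmbt2, an imprinted Polycomb gene, at 4.64 ± 0.48, 4.48 ± 1.23 and 4.47 ± 0.55. Dusp9, a kinase phosphatase, Phlda2, an imprinted gene, and Aurka, a mitotic kinase, followed at 4.15 ± 0.59, 4.10 ± 0.90 and 3.98 ± 0.83. Such a difference does not require opposed pairs or a contrast near 0. Dusp9 rose by 3.15 ± 0.30 in the contrast, with 5.23 ± 0.40 in the MYC-on pair and 1.08 ± 0.44 in the MYC-off pair. Aurka rose by 2.54 ± 0.41, with 4.53 ± 0.56 and 0.55 ± 0.61, a call lost with only 2 sides in the model (2.51). Srm was at 2.47, 2.06 and 1.80 in control liver, 1.15, 0.82, 1.73 and 1.24 in pre-tumor liver, 4.77, 4.39, 5.39 and 4.68 in tumor nodules and 1.46, 1.25, 0.92 and 0.56 in regression. Tumor arrays were the highest of all, while 3 regression arrays lay within the range of non-tumor liver and 1 below it.

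The largest in favor of the MYC-off pair were those of Vnn3, a pantetheinase (-7.04 ± 0.94), Cxcl10, an interferon-induced chemokine (-6.59 ± 1.26), Pla1a, a phospholipase (-6.11 ± 0.58), and Tnfaip3, an inhibitor of NF-kB (-6.01 ± 1.11). F11 and Rdh7, a retinol dehydrogenase, followed at -5.87 ± 0.62 and -5.81 ± 0.80. Vnn3 was at 0.42, -0.39 and 0.046 in control liver, 1.27, 0.28, 1.23 and 0.0051 in pre-tumor liver, -5.20, -3.12, -0.98 and -2.62 in tumor nodules and 3.50, 3.67, 2.95 and 3.44 in regression. Every tumor array was below, and every regression array above, all non-tumor arrays, so its contrast of -0.16 ± 0.47 (adjusted p = 0.843) averages 2 changes of opposite sign. These 12 genes were chosen by that difference, which is therefore a description. The comparison of MYC-on with MYC-off groups over the same arrays called 964 genes (5.02%), 3.07% higher and 1.95% lower with MYC on, and 645 of the genes called in the tissue contrast were among them. The count of 964 ranged from 528 to 1173 when single arrays were left out, and was 610 without control 2, 528 without control 3, 550 without tumor 1, 617 without tumor 2 and 607 without regression 2.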

How the data were processed

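RNA of 15 liver and liver tumor samples was amplified, labeled with Cy3 and hybridized to Agilent mouse 4x44K arrays, per the labels' protocols. The deposited scanner files hold fluorescence intensity per spot from Agilent Feature Extraction 10.5.1.1, per the file headers, and the processed intensity used here was already background-subtracted by that program. Annotation of the array design follows mm9, per the file headers. The authors also deposited a normalized table in log2, whose method is not given in the sources used here. Its values follow the rank of each array's median spot intensity (Spearman 1 on 14 arrays and 0.9903 on control 3), and it served as an alternative. The contrast was thus computed from scanner values rather than from that table.

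Each array was scaled to its 75th percentile of log2 processed intensity. Control spots and spots marked as outliers were left out, and a probe had to be well above background on at least 3 arrays. A gene took the probe with the highest mean level among those passing (7492 genes had 2 or more of 29877 named probes). A model with 4 group means was fitted in limma 3.58.1 (R 4.3.3) to all 19208 genes, with 11 residual degrees of freedom before moderation, and p-values were adjusted by Benjamini-Hochberg over all genes in each comparison, with 0.05 as threshold. Errors of differences are standard errors, and levels are given per array. On simulated data for the tissue contrast over 19208 genes the fit recovered 15% of 100 genes changed 2-fold and 74% of 100 changed 4-fold, with 7 false calls. No other gene was changed there, against 4580 genes called in the data. The adjusted p threshold was thus stricter in the simulation, and its shares do not carry over to the data. The number of arrays limits the precision.

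Genes named are the 12 largest measured rises and falls without overlap, the largest bounds, the 6 largest differences between the pairs each way, the 8 largest changes each way with small MYC differences, the members of each list with the lowest adjusted p, and a set of liver and MYC genes. A few genes that the rule names are not reported here. Members, lists and rules were chosen with earlier results of these data known, and genes named beyond the rule (Phgdh, Hp, Scd1, Marco, Timd4, Krt7 and the like) were chosen after their values were seen. Promoter sequences are RefSeq's for GRCm38.p6. Scaling, filter, probe choice, slide, replicate number, variance model, array weights and the arrays included were varied.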

Additional observations from a re-analysis of the deposited data

Results flagged for a closer look

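The difference between the pairs, tumor minus pre-tumor less regression minus control, passed an adjusted p of 0.05 for 55 of the genes named. It was above 0, in log2, for 17. These were Srm (4.64), Brca2 (4.48), Sfmbt2 (4.47), Dusp9 (4.15), Phlda2 (4.10), Aurka (3.98), Birc5 (3.88) and Cdt1 (3.29). Next came Baiap2l2 (2.88), Mcm2 (2.81), Phgdh (2.70), Psat1 (2.56), Incenp (2.47), Mthfd1l (2.43), Npm1 (2.34) and Asns (2.12). Smaller values were those of Fbl (1.84). It was below 0 for 38. The lowest values were those of Vnn3 (-7.04), Cxcl10 (-6.59), Pla1a (-6.11), Tnfaip3 (-6.01), F11 (-5.87), Rdh7 (-5.81), Hp (-5.80) and Cxcl9 (-5.38). They were followed by Cyp2f2 (-5.38), Gpc3 (-5.09), Slc27a5 (-5.05), Iigp1 (-5.01), Fbp1 (-4.97), Serpina3c (-4.95), Cp (-4.75) and F9 (-4.60). Values nearer 0 were those of Hpx (-3.93), Slco1b2 (-3.85), Pon1 (-3.85), Ugt2b5 (-3.72), Col3a1 (-3.65), Cd74 (-3.61), Cyp2a4 (-3.54) and Pigr (-3.48). Further genes were Cyp2a5 (-3.45), Nid1 (-3.43), Ms4a7 (-3.30), C8a (-3.25), Dnase1l3 (-3.23), Saa3 (-3.19), Afp (-3.12) and Cyp4a14 (-3.09). The remaining genes were Anxa5 (-2.85), Alb (-2.62), Col1a2 (-2.57), Vegfa (-2.24), Gata6 (-2.09) and Fabp1 (-1.85). Afp, Baiap2l2, Gpc3, Iigp1, Mcm2, Mthfd1l and Pigr were well above background on fewer than 2 arrays of at least 1 group, so the sizes of their differences are uncertain.

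A single array stood apart from the other 3 of its group, by Dixon's criterion, in 28 of 403 groups of 4 arrays examined over the named genes, and chance alone gives about 1 in 20. For pre-tumor 3 it was the level of Asns (-0.91), Cpt1b (-2.18), Khk (8.48), Lgals3 (-1.88), Pigr (3.09) and Pklr (4.95). On tumor 3 it was the level of Bex4 (2.96), Cp (3.83), Krt7 (0.88), Phgdh (4.35) and Pkm (3.94). In regression 1 it was the level of Cpt1b (0.23), Mbp (0.85), Mlxipl (0.10) and Sfmbt2 (-1.74). For regression 3 it was the level of Psat1 (2.73), Psph (-0.27), Sntg2 (-3.38) and Wfdc21 (4.77). On pre-tumor 1 it was the level of Cdkn1a (1.66) and F11 (3.30). In pre-tumor 4 it was the level of Brca2 (-0.77) and Max (-0.85). For regression 4 it was the level of Col1a1 (3.01) and Gpc3 (0.15). On tumor 4 it was the level of Lgals3 (2.17) and Mki67 (1.27). In tumor 2 it was the level of Xist (-0.52).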

How the results depend on the processing

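Counts of genes called moved with the setting, and no call of the tissue contrast was reversed. Reversals in the other comparisons were not examined. The 2130 rises in the contrast became 3280 with array weights, 1391 with only 2 sides in the model, 1392 without the 4 arrays of highest E1A signal and 1094 on only the 3 slides with all 4 groups, and ranged from 1722 to 2374 when single arrays were left out. The 2450 falls in the contrast became 1609 with median centring, 1592 with slide as a block, 4607 with array weights and 1178 on only the 3 slides with all 4 groups, and ranged from 1643 to 3149 when single arrays were left out. The 3683 calls in the MYC-on pair became 8103 with array weights and 1984 on only the 3 slides with all 4 groups, and ranged from 2891 to 3926 when single arrays were left out. The 1601 calls in the MYC-off pair became 983 with slide as a block and 819 on only the 3 slides with all 4 groups, and ranged from 1016 to 1810 when single arrays were left out. The 746 genes called in the contrast and both pairs became 1140 with array weights, 479 without the 4 arrays of highest E1A signal and 365 on only the 3 slides with all 4 groups, and ranged from 549 to 872 when single arrays were left out. The 1328 differences between the pairs became 2382 with normexp background correction and quantile normalization, 673 with median centring, 2375 in the authors' normalized table, 597 with slide as a block, 2748 with array weights, 593 without the 4 arrays of highest E1A signal and 236 on only the 3 slides with all 4 groups, and ranged from 879 to 1487 when single arrays were left out. The 964 calls of the MYC contrast became 1895 with normexp background correction and quantile normalization, 403 with median centring, 1859 in the authors' normalized table, 329 with slide as a block, 2257 with array weights, 616 without the 4 arrays of highest E1A signal and 114 on only the 3 slides with all 4 groups, and ranged from 528 to 1173 when single arrays were left out.

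The same-numbered arrays of different groups correlated between -0.445 and 0.608 in their deviations from the group means. Their median was 0.122, against 0.011 for all pairs of different groups and -0.169 for pairs on 1 slide. Of 15 arrays, 8 correlated best with an array of their own number. These values lean towards a shared structure by number, yet the main model did not take the numbers as pairs. What the numbers share was not tested. With the replicate block the contrast called 2513 rises and 4073 falls (38.2% rises), the MYC-on pair 4287 genes, the MYC-off pair 3519, the contrast with both pairs 1176, the difference between the pairs 1722 and the MYC contrast 1268.

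No named gene that was called in the tissue contrast changed direction there. Of 139 named genes, 112 kept their side of the threshold in the tissue contrast under all 29 settings, 17 lost their call under at least 1 and 10 gained one. Of 38 list medians 6 changed sign under a setting: MYC network, T and NK cells, endothelium, biliary, erythroid and hypoxia. The normexp setting was run on median spot signals in place of mean signals, a choice made after the files were seen. Spots differed in brightness between arrays, so sizes for dim genes are bounds or uncertain. In the simulation, which changed far fewer genes than were called here, a 2-fold change was often missed. The reason for each change was not tested.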

Other observations

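Genes of blood vessel growth and low oxygen gave a mixed picture. Of 19 tested, 5 rose and 1 fell. Nid1, a basement membrane protein, rose by 3.39 ± 0.37 (adjusted p = 6.89e-06), more in the MYC-off pair (5.11 ± 0.55) than in the MYC-on pair (1.67 ± 0.50; adjusted p of the difference = 0.0121). Ndrg1, a hypoxia-induced gene, rose by 2.94 ± 0.34, with 2.45 ± 0.47 and 3.43 ± 0.50 in the pairs. Vegfa, the main vascular growth factor, fell by 1.28 ± 0.25 (adjusted p = 0.00136), with -2.40 ± 0.34 in the MYC-on pair and -0.16 ± 0.36 in the MYC-off pair. Immediate-early and heat shock genes rose in 3 and fell in 0 of 23 cases, and the rises are near the share over all genes. Genes of red cells rose in 4 and fell in 3 of 17. Over all genes 11.1% rose and 12.8% fell.

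Of 13 genes of the MYC network, Max and Mlxip rose and 1 fell, against 11.1% rising and 12.8% falling over all genes. The call of Max was fragile, as given above. Mlxipl, a glucose-responsive factor of liver, fell by 1.31 ± 0.32 (adjusted p = 0.00805). Its call was lost with median centring (-1.02). Mlxip stood at 0.98 ± 0.30 (adjusted p = 0.0281), a call lost without any 1 of 5 arrays (from 0.81 to 0.97, control 3, pre-tumor 2, tumor 1, regression 1 and regression 3) or with slide as a block or the 3 complete slides alone (from 0.97 to 1.09).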
